A study of Mus musculus with 4 samples.

Results

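The genes described here are the 8 that carry out or gate mitochondrial fission and fusion: *Dnm1l*, *Fis1*, *Mff*, *Mfn1*, *Mfn2*, *Opa1*, *Oma1* and *Yme1l1*. They were taken by symbol from the 23337 genes listed in each of 4 RNA-seq libraries of mouse heart, and all 8 were found. PIMT, the product of *Tgs1*, is a transcriptional coactivator-binding protein and an RNA cap methyltransferase. In csPIMT-/- mice, Cre recombinase under the cardiomyocyte promoter α-MyHC removed exons 3 and 4 of floxed *Tgs1*, so the gene stays intact in the other cells of the heart. The controls were PIMT fl/fl mice, which carry the same floxed alleles without the deletion. Mice were C57BL6/J, 2 or 6 months old, and male and female hearts were mixed. Each of the 4 groups was 1 library made from the pooled RNA of 5 hearts, so no group had a replicate.

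Mitochondria divide when DRP1, the dynamin-like GTPase encoded by *Dnm1l*, is drawn from the cytosol by receptors in the outer membrane and constricts the organelle. They join when mitofusins fuse the outer membranes and OPA1 fuses the inner membranes and shapes the cristae. The inner-membrane proteases OMA1 and YME1L1 cut long OPA1 into short forms and so set how much of it can drive fusion. Adult cardiomyocytes are packed with mitochondria, and heart muscle that loses one of several of these proteins is known to develop cardiomyopathy.

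Values are the deposited normalized counts, that is, reads per gene divided by a size factor for the library. A ratio is the csPIMT-/- value divided by the PIMT fl/fl value of the same age, and its 95% Clopper-Pearson interval covers counting error only, not the difference between hearts. The libraries held 29823073 to 40705783 reads on genes, and no member had fewer than 753 reads in any library. In these whole-heart samples, fewer cells of a type and less RNA per cell cannot be told apart. *Tgs1* itself had 580 normalized counts in the younger and 816 in the older control, against 160 and 162 after deletion, the direction that the labels give. Its count takes in reads outside the deleted exons, and its ratios were 0.276 (0.227 to 0.334) at 2 months and 0.199 (0.167 to 0.236) at 6 months.

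The pools also differed in what tissue and which sex they held. Summed over 7 cardiomyocyte markers the libraries lay between 1154527 and 1494142 normalized counts, so the labelled tissue was present in all 4. The sum of the atrial markers *Myl7*, *Myl4* and *Sln* was 2554 and 44298 in the controls of 2 and 6 months, and 124388 and 28049 in csPIMT-/-. *Nppa*, an atrial marker that ventricles in heart failure are also known to express, stood at 38182 and 70659 in the controls, and at 201180 and 320296 in csPIMT-/-. The sum of 4 brown fat markers was 7741 in the 2-month csPIMT-/- library and 1902 to 3046 in the others, where most of it was *Cidea*. The other markers, *Ucp1*, *Adipoq* and *Plin1*, were 1766, 1830 and 1586 in the 2-month csPIMT-/- library. They were 8.65, 5.19 and 3.46 in the 2-month control and 12.5 to 453 in the 6-month libraries. The sum of 4 lung markers was 1150 in the 2-month csPIMT-/- library and 0 to 16 in the others. The sum of 4 Y-linked genes was 8087 in the 2-month control and 449 to 1176 in the others, while *Xist* was 805 there and 6369 to 25639 in the others. Fibroblast markers summed to 276667 and 142298 in the controls of 2 and 6 months, and to 190822 and 202442 in csPIMT-/-. For endothelial markers these sums were 48159 and 34551 against 27945 and 31931, and for leukocyte markers 7151 and 18648 against 21791 and 27832. The part of these differences in the values below was not tested.

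To show the regulatory sequence that precedes the fusion genes, the 100 bases before the start of the 2 mitofusin genes and of *Opa1* are given from RefSeq (GRCm38.p6), in the direction of transcription, at chr3:32529382-32529481 (plus strand), chr4:147904699-147904798 (minus strand) and chr16:29579234-29579333 (plus strand). Capitals mark a match to the motif of NRF1, a factor known for its sites before genes of mitochondrial proteins, searched by the core letters GCGCNTGCG on both strands, where 2 overlapping matches make 1 run.
Mfn1: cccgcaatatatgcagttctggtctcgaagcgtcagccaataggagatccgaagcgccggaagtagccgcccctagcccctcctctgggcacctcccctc
Mfn2: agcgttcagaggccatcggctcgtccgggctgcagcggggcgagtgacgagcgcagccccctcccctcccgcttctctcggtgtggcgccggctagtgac
Opa1: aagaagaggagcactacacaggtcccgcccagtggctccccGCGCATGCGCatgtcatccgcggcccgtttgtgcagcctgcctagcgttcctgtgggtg

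Each window was the 250 bases before the RefSeq start nearest the annotated start of the gene, and other starts were not searched. The RefSeq start was inside the annotated gene by 136 bases for *Yme1l1*, 34 for *Oma1*, 17 for *Mfn1* and 6 for *Mfn2*. The last bases of those windows thus lie within the annotated gene. For *Dnm1l* the RefSeq start was 72 bases outside the gene. In these windows the NRF1 letters were found for *Opa1* and *Oma1* and for no other member. They occurred in 5.19% of 32851 promoters of that length. The letters TNAAGGTCA of the oestrogen-related receptors, the shorter AGGTCA and the E-box CACGTG, searched on both strands, occurred in none of the 8 windows and in 1.14%, 14.0% and 6.02% of all promoters. TNAAGGTCA contains AGGTCA, so those shares overlap. Over the same 250 bases GC content was 53.6% for *Mfn1*, 64.0% for *Mfn2* and 52.0% for *Opa1*, against a median of 52.4% over all promoters.

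Across the set, 5 of 8 genes fell and 1 rose in csPIMT-/- hearts when genotype was tested over both ages with limma. Those that fell were *Dnm1l*, *Mff*, *Mfn1*, *Opa1* and *Yme1l1*, and the one that rose was *Fis1*. *Mfn2* and *Oma1* did not pass the test. The test called 17.5% of all genes lower and 11.0% higher, so that changed genes were common in these libraries. In the 6 genes that passed, the csPIMT-/- and control libraries did not overlap; of all genes tested, both csPIMT-/- libraries lay below both controls in 35.9% and above them in 35.2%. The test rests on 1 residual degree of freedom and on variance borrowed across genes. When the dependence of the values on GC content was subtracted, none of the 8 genes passed limma's adjusted threshold, as described further on.

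**Figure D1:**
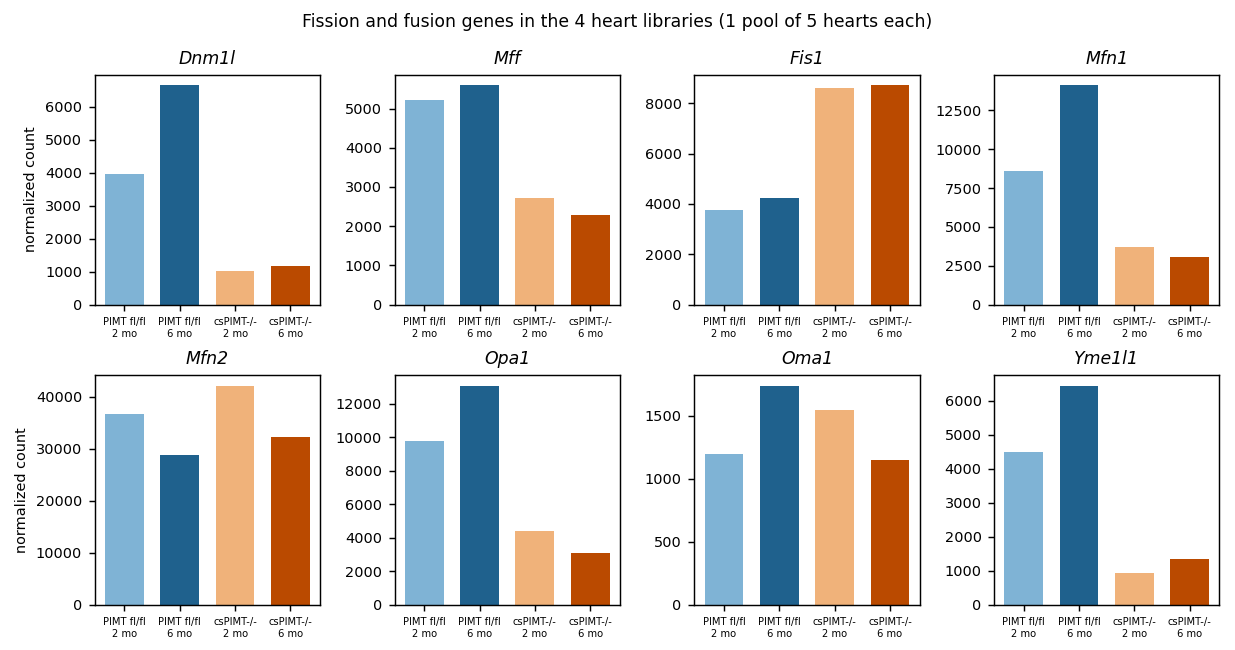
Normalized count (vertical axis, from 0 for each gene) of the 8 genes in the 4 libraries, each bar 1 library from 1 pool of 5 hearts, with no error bars because no group had a replicate. The csPIMT-/- bars sit below both control bars for *Dnm1l*, *Mff*, *Mfn1*, *Opa1* and *Yme1l1* and above both for *Fis1*.

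Of the fission genes, *Dnm1l* encodes the GTPase that performs the cut. It is annotated at chr16:16312230-16358959 on the minus strand of GRCm38. The controls held 3947 normalized counts at 2 months and 6639 at 6 months, and the csPIMT-/- libraries 1022 and 1180. Both csPIMT-/- libraries were far below both controls, and the range within either genotype was smaller than the gap between them. The ratio was 0.259 (0.240 to 0.279) at 2 months and 0.178 (0.167 to 0.189) at 6 months. Over both ages the log2 difference was -2.22 ± 0.237 (SE; limma, adjusted p = 0.0163).

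*Mff* encodes the outer-membrane receptor regarded as the main recruiter of DRP1, and lies at chr1:82724890-82752394 on the plus strand. Its normalized counts were 5208 and 5587 in the controls and 2720 and 2296 in the csPIMT-/- libraries, at 2 and 6 months. The controls were nearly level with each other, and both csPIMT-/- libraries were lower. Its ratio of 0.522 (0.497 to 0.548) at 2 months lay just short of a 2-fold difference, and that of 0.411 (0.391 to 0.431) at 6 months lay past it. The log2 difference over both ages was -1.11 ± 0.212 (SE; limma, adjusted p = 0.0254).

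*Fis1* encodes a small tail-anchored outer-membrane protein that was named for fission and takes a lesser part in recruiting DRP1 in mammals. It lies at chr5:136953275-136966234 on the plus strand. Its normalized counts were 3754 and 4233 in the controls and 8596 and 8703 in the csPIMT-/- libraries. It was the only one of the 8 genes that limma called higher, and the values of the 2 ages were close within each genotype. Its ratio was 2.29 (2.20 to 2.38) at 2 months and 2.06 (1.98 to 2.13) at 6 months, where the interval reaches below 2. The log2 difference was 1.12 ± 0.199 (SE; limma, adjusted p = 0.0226).

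Of the fusion genes, the mitofusin pair differed from each other. *Mfn1*, at chr3:32529465-32579239 on the plus strand, encodes the mitofusin with the stronger tethering and GTPase activity. Its normalized counts were 8606 and 14111 in the controls and 3718 and 3036 in the csPIMT-/- libraries. The csPIMT-/- libraries were lower at both ages, and the control of 6 months was the highest of the 4. Its ratio was 0.432 (0.415 to 0.450) at 2 months and 0.215 (0.207 to 0.224) at 6 months, and its log2 difference was -1.71 ± 0.298 (SE; limma, adjusted p = 0.0221).

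*Mfn2* encodes the mitofusin that also links mitochondria to the endoplasmic reticulum and to PINK1 and parkin, and lies at chr4:147873599-147904704 on the minus strand. It held 36786 and 28885 normalized counts in the controls and 42148 and 32255 in the csPIMT-/- libraries. The genotypes overlapped, since the 6-month csPIMT-/- library was below the 2-month control. Its ratio was 1.15 (1.13 to 1.16) at 2 months and 1.12 (1.10 to 1.13) at 6 months. The log2 difference of 0.18 ± 0.227 (SE; limma, adjusted p = 0.573) did not pass the test, and its sign turned when the GC dependence was subtracted (-0.22). At each age the ratio of *Mfn1* was below that of *Mfn2*, and their counting intervals were apart.

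*Opa1* encodes the inner-membrane fusion GTPase and lies at chr16:29579334-29654884 on the plus strand. Its normalized counts were 9793 and 13071 in the controls and 4411 and 3079 in the csPIMT-/- libraries. Both csPIMT-/- libraries were below both controls. The ratio was 0.450 (0.434 to 0.468) at 2 months and 0.236 (0.226 to 0.245) at 6 months, and the log2 difference was -1.62 ± 0.286 (SE; limma, adjusted p = 0.0224).

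The 2 genes of the OPA1 proteases were unlike each other as well. *Yme1l1*, at chr2:23156369-23199260 on the plus strand, encodes the ATP-dependent protease that processes OPA1 constitutively. Its normalized counts were 4499 and 6447 in the controls and 928 and 1351 in the csPIMT-/- libraries. The ratio was close to the same at both ages, 0.206 (0.191 to 0.223) and 0.210 (0.197 to 0.222). The log2 difference of -2.26 ± 0.202 (SE; limma, adjusted p = 0.0163) was the lowest of the 8 genes.

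*Oma1*, at chr4:103313812-103371868 on the plus strand, encodes the protease that is activated when the inner membrane loses its potential. Its normalized counts were 1194 and 1738 in the controls and 1542 and 1151 in the csPIMT-/- libraries. The ranges of the genotypes overlapped in part, and the order of the genotypes was opposite at the 2 ages. Its ratio was 1.29 (1.20 to 1.40) at 2 months and 0.662 (0.615 to 0.713) at 6 months. The log2 difference over both ages was -0.11 ± 0.305 (SE; limma, adjusted p = 0.796) and did not pass the test.

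Counted at each age by size alone, with no test, 4 of the 8 genes were past 2-fold lower at 2 months (*Dnm1l*, *Mfn1*, *Opa1* and *Yme1l1*) and 5 at 6 months, when *Mff* joined them. Of all genes, 22.5% were past 2-fold lower at 2 months and 24.9% at 6 months. *Fis1* was the 1 gene past 2-fold higher at either age, where 17.3% and 16.9% of all genes were. The sign of the ratio was the same at both ages in 7 of 8 genes, the exception being *Oma1*.

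**Figure D2:**
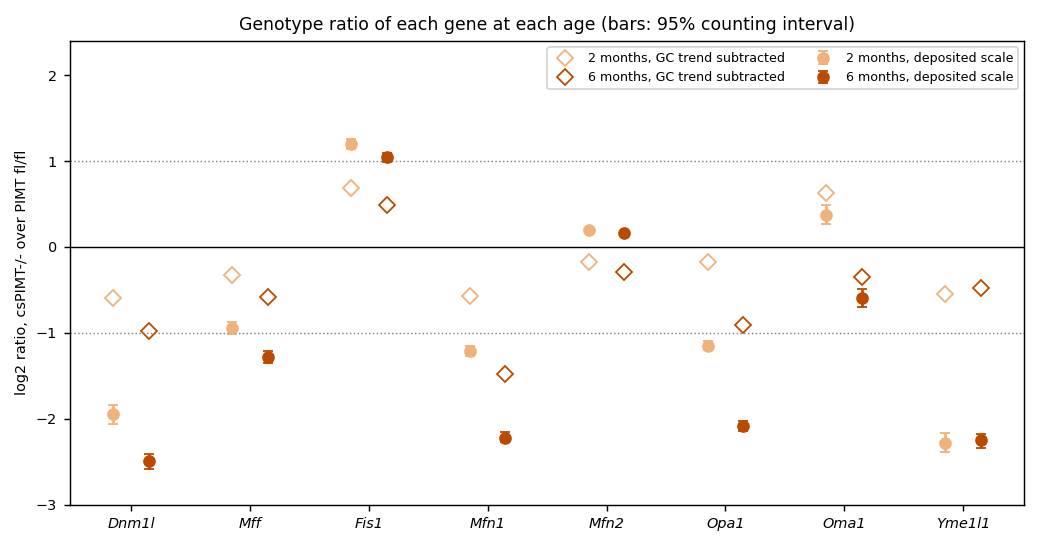
Log2 ratio of csPIMT-/- over PIMT fl/fl (vertical axis; 0 is no difference and the dotted lines mark 2-fold) for the 8 genes at 2 and 6 months, with filled points on the deposited scale, bars for the 95% counting interval of a single pair of libraries, and open diamonds after the GC trend of all genes was subtracted. Filled points for *Dnm1l* and *Yme1l1* lie lowest at 2 months (ratios 0.259 and 0.206), and all open diamonds lie within 2-fold except that of *Mfn1* at 6 months (0.359).

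The comparison of ages separated the genes further. In the controls, *Dnm1l* stood 1.68 times as high at 6 months as at 2 months, *Mfn1* 1.64 times, *Oma1* 1.46 times, *Yme1l1* 1.43 times and *Opa1* 1.33 times. In the csPIMT-/- libraries the same quotients were 1.15 for *Dnm1l*, 0.816 for *Mfn1*, 0.746 for *Oma1*, 1.46 for *Yme1l1* and 0.698 for *Opa1*. Thus *Mfn1*, *Oma1* and *Opa1* were higher at 6 months in the controls and lower at 6 months in the csPIMT-/- hearts, while *Yme1l1* was higher in both. *Fis1* was close to level with age (1.13 and 1.01), as was *Mff* in the controls (1.07, against 0.844 in csPIMT-/-), and *Mfn2* was lower at 6 months in both genotypes (0.785 and 0.765). The age quotients moved with GC content too, with a Spearman's rho over all genes of -0.270 in the controls and -0.0957 in csPIMT-/-. With that trend subtracted, *Yme1l1* was level with age (0.995 and 1.04), and *Dnm1l* had 1.28 in the controls and 0.966 in csPIMT-/-. *Mfn1* (1.47 and 0.788), *Oma1* (1.41 and 0.718) and *Opa1* (1.11 and 0.655) were still above 1 in the controls and below 1 in csPIMT-/-.

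The genotype ratio at 6 months divided by that at 2 months was 0.498 (0.470 to 0.527) for *Mfn1*, 0.513 (0.461 to 0.570) for *Oma1* and 0.523 (0.495 to 0.552) for *Opa1*. It was 0.686 (0.623 to 0.756) for *Dnm1l* and 0.787 (0.735 to 0.843) for *Mff*. It was near 1 for *Fis1* (0.898, 0.852 to 0.946), *Mfn2* (0.975, 0.954 to 0.995) and *Yme1l1* (1.02, 0.922 to 1.12). With the GC trend subtracted it was 0.534 for *Mfn1*, 0.507 for *Oma1*, 0.599 for *Opa1* and between 0.770 and 1.05 for the others. The intervals hold counting error alone, and with 1 library a group the difference between ages was not tested. The controls had a share in this change, as seen when both csPIMT-/- libraries were set against the control of 2 months. From 2 to 6 months that ratio went from 0.432 to 0.353 for *Mfn1* and from 0.450 to 0.314 for *Opa1*. For *Dnm1l* it went from 0.259 to 0.299. On the deposited scale the fall in the genotype ratio of *Dnm1l* thus lay in the higher control of 6 months.

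Quotients between genes of 1 library do not depend on how libraries are scaled to each other, but they do carry the dependence on GC content that is described further on. Values per kb of the longest protein-coding transcript were used to compare genes, since the transcripts differ from 0.948 kb (*Fis1*) to 6.23 kb (*Opa1*). *Mfn2* was the most abundant of the 8 by this measure in the controls, with 8474 and 6654 normalized counts per kb, and *Fis1* came next with 3960 and 4465. In the csPIMT-/- libraries *Fis1* stood at 9067 and 9180 and *Mfn2* at 9709 and 7430. Thus *Fis1* was a little below *Mfn2* at 2 months and above it at 6 months. The quotient of *Fis1* over *Mfn2* per kb was 0.467 and 0.671 in the controls. In the csPIMT-/- libraries it was 0.934 (0.910 to 0.958) and 1.24 (1.21 to 1.27). With the GC trend subtracted, the genotype change in this quotient went from 2.00 to 1.82 at 2 months and from 1.84 to 1.71 at 6 months.

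At the other end, *Oma1* was lowest in the controls, with 624 and 907 normalized counts per kb. In the csPIMT-/- libraries *Yme1l1* (197 and 287) and *Dnm1l* (258 and 297) were below it, and *Oma1* stood at 805 and 601. *Dnm1l* and *Yme1l1* were neighbours in every library, with a quotient of 1.04 in the 2-month control and 1.04 (0.956 to 1.12) in the 6-month csPIMT-/- library, so that their order could not be told there. Between these ends *Mff*, *Mfn1* and *Opa1* kept to the middle of the order in all 4 libraries.

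The outer-membrane fusion pair, *Mfn1* over *Mfn2*, had per-kb quotients of 0.223 and 0.465 in the controls and 0.0839 and 0.0896 in the csPIMT-/- libraries. For the fission GTPase over the receptor that rose, *Dnm1l* over *Fis1*, they were 0.251 and 0.375 against 0.0284 and 0.0324. The receptor pair *Mff* over *Fis1* gave 0.630 and 0.600 against 0.144 and 0.120. In each of these pairs both csPIMT-/- libraries were below both controls, and by a larger fold than that between the 2 controls. The genotype change in these quotients was smaller with the GC trend subtracted: for *Dnm1l* over *Fis1* it went from 0.113 to 0.410 at 2 months and from 0.0864 to 0.364 at 6 months, for *Mff* over *Fis1* from 0.228 to 0.495 and from 0.200 to 0.479, and for *Mfn1* over *Mfn2* from 0.377 to 0.758 and from 0.193 to 0.439.

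For the inner membrane, *Opa1* over *Oma1* was 2.52 and 2.31 in the controls and 0.879 and 0.823 in the csPIMT-/- libraries, and *Yme1l1* over *Oma1* was 1.53 and 1.51 against 0.245 and 0.478. The quotient of the fission to the inner-membrane fusion GTPase, *Dnm1l* over *Opa1*, was 0.633 and 0.798 in the controls and 0.364 and 0.602 in the csPIMT-/- libraries. The 6-month csPIMT-/- value of 0.602 was near the 2-month control. With the GC trend subtracted, the genotype change at 2 and 6 months was 0.575 and 0.679 for *Opa1* over *Oma1*, 0.441 and 0.918 for *Yme1l1* over *Oma1*, and 0.744 and 0.957 for *Dnm1l* over *Opa1*.

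**Figure D3:**
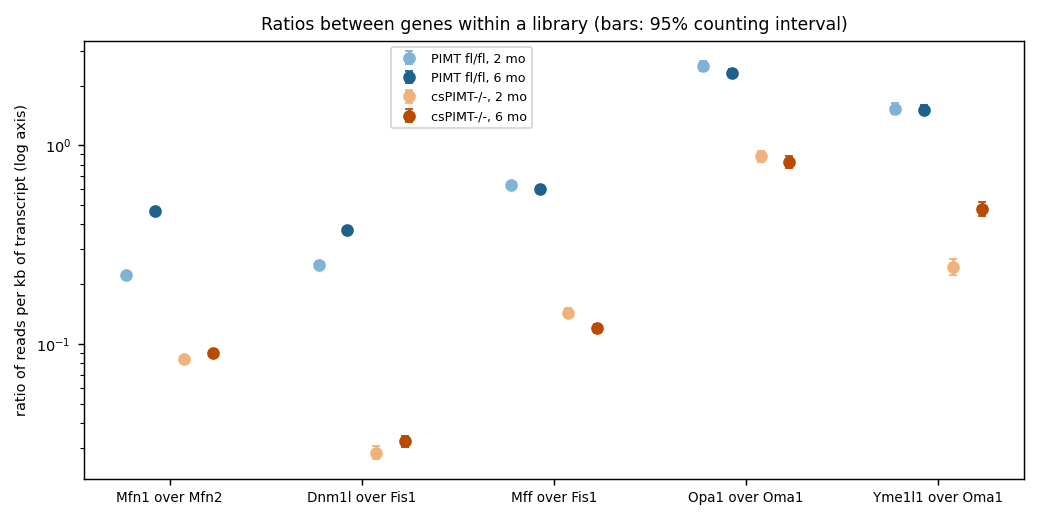
Quotient of reads per kb between 2 genes of the same library (vertical log axis) for 5 gene pairs, with 1 point a library and bars for the 95% counting interval. In every plotted pair both csPIMT-/- points lie below both control points. For *Dnm1l* over *Fis1* they lie at 0.0284 and 0.0324 against 0.251 and 0.375. Each plotted pair has the gene of lower GC content as numerator. Among pairs not plotted, *Opa1* over *Yme1l1* was higher in csPIMT-/-, at 3.59 and 1.72 against 1.64 and 1.53. Its counting interval in the 6-month csPIMT-/- library (1.61 to 1.84) overlapped that in the 2-month control (1.59 to 1.70). With the GC trend subtracted, the genotype change in *Opa1* over *Yme1l1* was smaller but above 1 at 2 months. At 6 months it went from 1.12 to 0.740. The genotypes overlapped for *Dnm1l* over *Yme1l1*, also not plotted.

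The genotype ratio moved with the GC content of transcripts across the whole table. Over 13748 genes at 2 months and 13787 at 6 months, Spearman's rho between the log2 ratio and GC content was 0.594 and 0.620, given as a description because the genes share 2 libraries. The 8 genes followed the same order, with a rho of 0.952 at both ages (n = 8 genes). *Yme1l1* (38.0% GC), *Dnm1l* (40.9%) and *Opa1* (43.5%) had the lowest GC content, *Mfn1* (45.9%) and *Mff* (46.0%) lay below the median of all genes of 50.3%, as did *Oma1* (48.5%), and *Mfn2* (53.1%) and *Fis1* (54.4%) lay above it. The mitofusin pair and the protease pair, which differed in ratio, thus differed in GC content as well.

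At the GC content of *Yme1l1* the trend over all genes was a ratio of 0.303 at 2 months and 0.292 at 6 months, and at that of *Fis1* it was 1.42 and 1.47. After the trend was subtracted, *Yme1l1* had ratios of 0.682 and 0.719, *Dnm1l* of 0.661 and 0.509, *Mfn1* of 0.672 and 0.359, *Mff* of 0.799 and 0.670, and *Opa1* of 0.888 and 0.532. *Fis1* had ratios of 1.61 and 1.40 and was on the same side as before. *Mfn2* went from above 1 to 0.887 and 0.819, and *Oma1* had 1.55 and 0.783. None of the 8 was past 2-fold at 2 months, and *Mfn1* alone was at 6 months.

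In limma on the GC-subtracted values none of the 8 genes and none of 13469 genes tested passed the adjusted threshold, while 4 of the 8 and 3244 of all genes had an unadjusted p under 0.05. The log2 differences of the genes called before were then -0.78 for *Dnm1l* (adjusted p = 0.149), -1.02 for *Mfn1* (0.153), -0.53 for *Opa1* (0.285), -0.52 for *Yme1l1* (0.204), -0.44 for *Mff* (0.253) and 0.60 for *Fis1* (0.173). *Tgs1*, the deleted gene, likewise went from -2.09 (adjusted p = 0.0184) to -0.77 (0.208). Which part of the difference came from the libraries and which from the hearts cannot be told apart in this design.

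**Figure D4:**
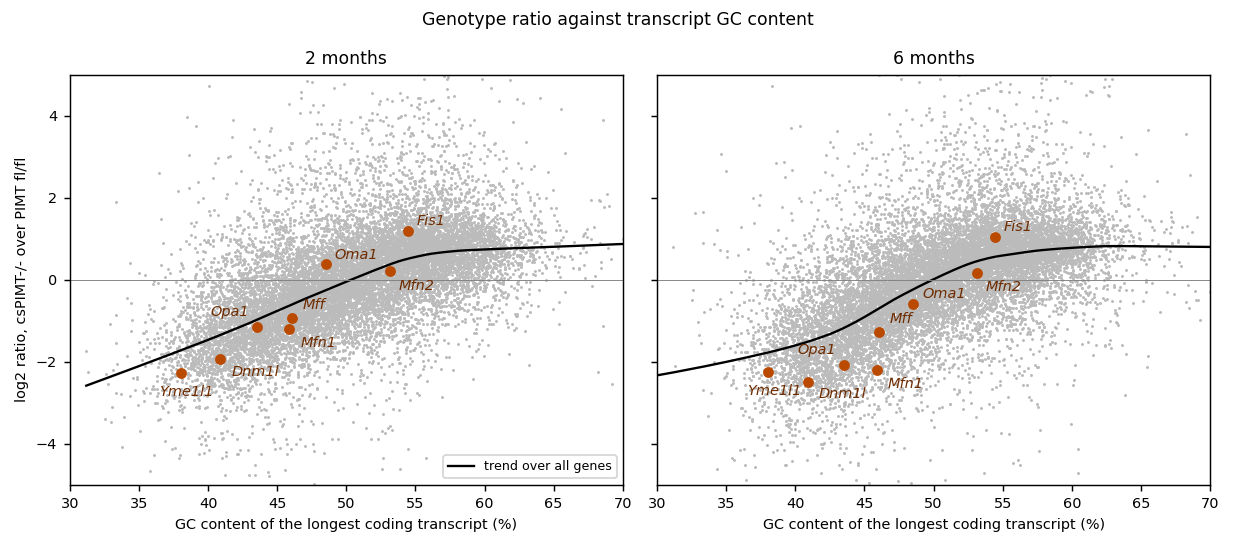
Log2 genotype ratio (vertical axis) against GC content of the longest coding transcript in percent (horizontal axis) at 2 and 6 months, with all genes in grey, their lowess trend as a black line and the 8 genes in colour. The trend rises with GC content, *Yme1l1* (38.0%) and *Dnm1l* (40.9%) sit at its low end, and all but *Fis1* lie below the line at 6 months.

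Leaving out a control changed which genes passed limma. Without the 6-month control, *Dnm1l* and *Yme1l1* passed and the other 4 did not, and without the 2-month control, *Fis1* and *Mff* no longer passed. The reads recovered from the values gave the same 6 genes with edgeR and with DESeq2.

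The machinery around the 8 genes was described with 6 lists holding 70 tested genes, of which 15 fell and 6 rose in limma, against 17.5% and 11.0% of all genes. The median log2 difference was -1.36 over the 8 genes, 0.03 over all genes, and between -0.61 and 0.49 over the lists. With the GC trend subtracted none of the list genes with a GC value passed. The median was then -0.48 over the 8 genes, 0.03 over all genes, and between -0.45 and 0.50 over the lists. Of the 21 list genes called, 19 had a GC value (*Park2* and *Smcr7* did not), and 16 were on the same side at both ages after the subtraction. *Slc25a46* and *Ghitm* turned at both ages and *Lonp1* at 1 age.

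Among 14 fission adaptors and regulators, 3 fell and 1 rose, with a median of -0.02. With the GC trend subtracted it was 0.02, over the 12 genes with a GC value. *Slc25a46*, whose outer-membrane protein interacts with fusion factors, had 3339 and 4889 normalized counts in the controls and 1372 and 1704 in csPIMT-/- (log2 difference -1.40, limma, adjusted p = 0.0182), and its ratios with the GC trend subtracted were 1.06 and 1.01. *Senp5*, a SUMO protease that acts on DRP1, and *March5*, a mitochondrial ubiquitin ligase, had log2 differences of -1.10 and -0.94. *Smcr7*, also called *Mief2*, whose product MID49 recruits DRP1, rose with a log2 difference of 0.76 (limma, adjusted p = 0.0472). *Smcr7l*, of the same list, did not pass (-0.15, limma, adjusted p = 0.601). DRP1 receptors that passed the test thus included genes that fell (*Mff*) and genes that rose (*Fis1*, *Smcr7*).

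Among 10 genes of mitochondrial motility, tethering and mitofusin control, 2 fell and 1 rose, with a median of -0.03. With the GC trend subtracted the median was -0.45, over the 7 of these 10 genes that had a GC value. *Rhot1*, the gene of the motility GTPase Miro1, had 4511 and 4944 normalized counts in the controls and 1862 and 1477 in csPIMT-/- (-1.51, limma, adjusted p = 0.0182), and its motor adaptor *Trak2* had a log2 difference of -1.07. *Park2*, the gene of parkin, which ubiquitinates mitofusins, rose from 373 and 539 to 810 and 953 (0.97, limma, adjusted p = 0.0493). *Pink1*, the kinase upstream of parkin, had 13756 and 18878 normalized counts in the controls and 35994 and 30616 in csPIMT-/- (1.04, limma, adjusted p = 0.0429), and after the GC trend was subtracted its ratio was 1.59 at 2 months and 0.964 at 6 months.

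Of 16 genes of OPA1 processing and inner-membrane quality control, 1 fell and 3 rose, with a median of 0.49, or 0.11 with the GC trend subtracted. *Htra2*, a protease of the intermembrane space, rose from 1033 and 1119 normalized counts to 2059 and 2674 (1.13, limma, adjusted p = 0.0263), and the matrix protease genes *Clpp* and *Lonp1* rose by 0.90 and 0.86 on the log2 scale, where *Lonp1* had a GC-subtracted ratio of 0.992 at 2 months and 1.29 at 6 months. *Ghitm*, an inner-membrane protein gene, fell by 1.06 on that scale, but its ratios with the GC trend subtracted were above 1, at 1.18 and 1.13. The direction of *Yme1l1* was thus not that of the proteases called in this list.

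Of 12 genes of MICOS, the complex that holds cristae junctions, and of its outer-membrane partners, 5 fell and 1 rose, with a median of -0.61, or -0.36 with the GC trend subtracted. *Apool*, *Mtx3*, *Apoo*, *Mtx2* and *Chchd3* fell by 2.04, 1.94, 1.76, 1.36 and 1.18 on the log2 scale. *Chchd6*, another MICOS subunit gene, rose from 499 and 368 normalized counts to 1123 and 1205 (1.44, limma, adjusted p = 0.0254). *Opa1*, which shapes cristae with this complex, had a log2 difference in the range of the 5 that fell.

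Of 11 genes of outer-membrane and matrix content, often read as a sign of the amount of mitochondria, 3 fell and none rose, with a median of -0.04, or -0.08 with the GC trend subtracted. Those were *Hspd1*, *Timm44* and *Hspa9*, genes of chaperones and import, which fell by 2.55, 1.24 and 1.09 on the log2 scale. Of 7 large dynamin-family genes that act outside mitochondrial dynamics, *Atl2*, of the endoplasmic reticulum, fell by 1.42 and none rose, with a median of -0.13, or 0.50 with the GC trend subtracted.

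**Figure D5:**
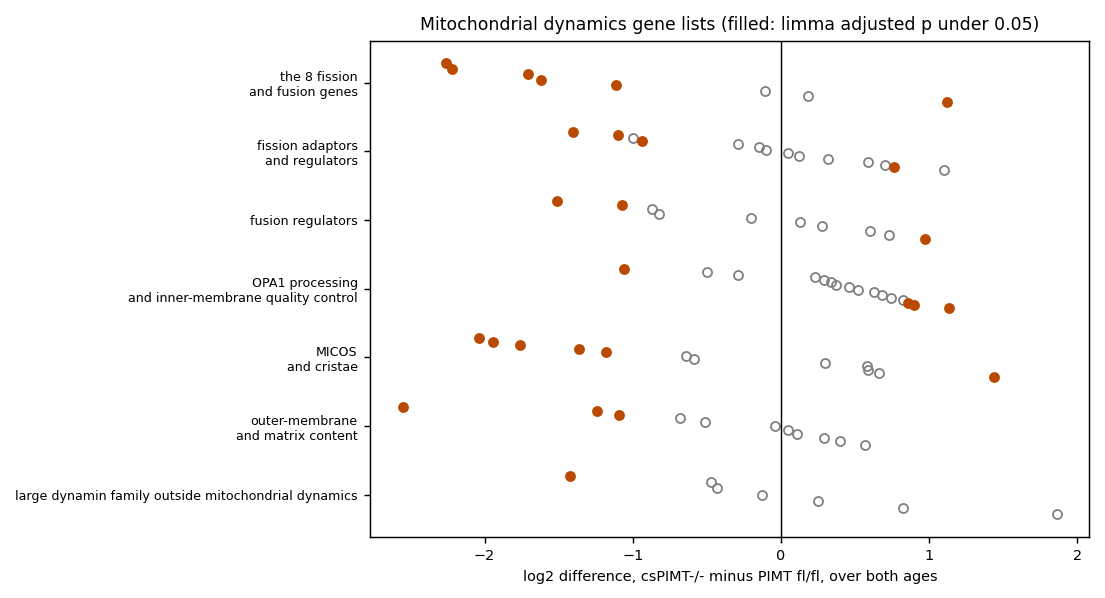
Log2 difference between csPIMT-/- and PIMT fl/fl over both ages (horizontal axis) for each tested gene of the 8 fission and fusion genes and of the 6 lists (rows), with filled points for a limma adjusted p under 0.05. Of the 8 genes, 5 filled points lie left of 0 and 1 lies right of it, and the list points spread to both sides of 0.

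The genes nearest in pattern were named for *Dnm1l* and *Mfn2*, by the distance between log2 values centred on each gene's mean over the 4 libraries, among 10834 genes with at least 100 reads in every library. For *Dnm1l* they were *Sec62*, *Arfgef1* and *Akap9*, at distances of 0.0649, 0.0717 and 0.0864, with GC contents of 42.4%, 42.3% and 44.8%. For *Mfn2* they were *Usp10*, *Map3k12* and *Fabp3*, at 0.0481, 0.0558 and 0.0590, with 54.2%, 48.3% and 53.9%. With 4 libraries, many genes come close to any pattern.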

How the data were processed

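The authors isolated heart RNA, enriched mRNA with oligo-dT, made directional TruSeq libraries and sequenced single 50-base reads on a HiSeq2500. They trimmed adapters, removed ribosomal reads, aligned with STAR to mm10, counted with htseq-count (HTSeq 0.6.1p1 per the submitters' processing notes) and a UCSC annotation, and used DESeq2. Other versions are not given in the sources used here. The deposited unit is a normalized count per gene, a signal scaled by a size factor. The 6-month csPIMT-/- column is headed as read counts but holds such values. Dividing by the smallest value above 0 gave whole reads for 100% of values (tolerance 0.01), with 39854713 and 40705783 reads on genes in the controls of 2 and 6 months and 29823073 and 36172093 in csPIMT-/-.

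Single-age ratios have no p-value, and genes needed 10 reads in 1 of the 2 libraries. limma 3.58.1 (R 4.3.3, mean trend, 1 residual and 4.01 prior degrees of freedom) was fitted to log2(normalized count + 1) of 14847 genes with at least 10 normalized counts in at least 2 libraries, with genotype and age as terms and Benjamini-Hochberg adjustment over all genes. edgeR 4.0.16 and DESeq2 1.42.0 on the recovered reads, TMM scaling, other pseudocounts and filters, no mean trend, no age term, GC subtraction and leaving out each library were alternatives. GC content and length came from the longest protein-coding transcript of GENCODE M21 (GRCm38). For single ratios, the log2 ratios were smoothed on GC content by lowess (span 0.3) and the trend subtracted. For limma, each library's log2 values minus the gene's mean over the libraries were smoothed in the same way. That library's own trend was then subtracted. Scripts were tested on simulated data. The 8 genes, the lists and the markers were chosen with earlier results of these data known. Named genes were the 8 members, the list genes called by limma, *Smcr7l*, *Tgs1*, *Pink1* and the 3 nearest patterns of *Dnm1l* and *Mfn2*. No batch is given in the sources used here, so none could be compared within.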

Additional observations from a re-analysis of the deposited data

Results flagged for a closer look

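The genotype ratio of *Oma1* was 1.29 at 2 months and 0.662 at 6 months, so that the groups of the 2 ages moved in opposite directions. The normalized counts were 1194 in the control and 1542 in the csPIMT-/- library at 2 months, and 1738 and 1151 at 6 months. Set against the control of the other age, the ratios were 0.888 for the 2-month and 0.964 for the 6-month csPIMT-/- library. With 1 library in each group the difference between ages was not tested.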

How the results depend on the processing

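Of the 8 genes, limma called 6, and it called 0 without the mean trend (6 with an unadjusted p under 0.05), 0 with the GC trend subtracted (4), and 0 with the GC content of the longest transcript of any kind (5) or the median of the coding transcripts (3), both chosen after seeing the data, as were the GC subtraction from quotients between genes or ages and the atrial sum without *Nppa*. Of the list genes it called 21, and 0 under each of those 4 settings. The cause was not tested. With 1 library left out, 2 to 6 of the 8 genes and 3 to 17 list genes were called, 2 and 3 without the 6-month control and 4 and 10 without the 2-month control. With the GC trend subtracted, 0 of the 8 genes were past 2-fold at 2 months (5 before) and 1 at 6 months (6 before). TMM, other pseudocounts and filters, no age term, edgeR and DESeq2 each called the same 6 genes. The log2 difference of *Mff* was 0.58 with the GC content of its longest transcript of any kind, which retains an intron. Those of *Mfn2* were -0.22, -0.24 and -0.27 under the 3 GC settings and -0.02 to 0.37 with a library left out, and those of *Oma1* 0.15, 0.09 and 0.26, and -0.38 to 0.16. The ratio of *Mfn2* was 0.887 at 2 months with the GC trend subtracted, and at 6 months 0.819 so, 0.877 against the 2-month control and 0.981 against both controls summed. That of *Oma1* at 2 months was 0.888 against the 6-month control. The remaining limits are that each group is 1 pooled library, so no spread between hearts can be measured, and that counting error is small at these depths.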
